A study of Mus musculus with 15 samples.

Results

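The subunits of the respiratory chain and of ATP synthase that the nuclear genome encodes were compared between fetal and adult mouse intestinal epithelium. A gene was counted as a member when its symbol in the table of sorted cells named a subunit of complex I (the Nduf genes of types a, b, c, s and v), complex II (Sdha to Sdhd), complex III (Uqcr), complex IV (Cox4 to Cox8 with an isoform letter a to c) or ATP synthase (Atp5). This symbol rule used no measured value, and it found 84 members among 24594 rows. The symbol also set the complex. Ndufa4 and Ndufa4l2 are therefore counted under complex I, although NDUFA4 is now regarded as a subunit of complex IV. The subunits that the mitochondrial genome encodes were not analysed here.

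The series holds 15 RNA-seq libraries in 5 groups of 3. The comparison used E16.5 fetal epithelium and adult crypt epithelium, with 3 libraries each. Fetal cells came from the proximal intestine of C57Bl/6J embryos and were sorted as EpCAM-positive, DAPI-negative, CD31-negative and CD45-negative. The labels give them no genotype. Adult cells came from crypts of the proximal 20% of the small intestine of wild-type C57Bl/6J mice and were sorted for EpCAM and intermediate CD24, without DAPI or lineage staining. The adult libraries were made with a stranded total RNA kit for small inputs, and the kit of the fetal libraries is not given in the sources used here. Neither group received a treatment. Age and sort gate changed together and cannot be told apart here. The 9 organoid libraries were not used, because the rows of their table carry no gene name.

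Complexes I to IV pass electrons from NADH and succinate to oxygen. Complexes I, III and IV pump protons across the inner mitochondrial membrane as they do so, complex II does not, and ATP synthase uses the returning protons to make ATP. Complex I takes electrons from NADH and complex II takes them from succinate. Complex III passes them from ubiquinol to cytochrome c, and complex IV passes them on to oxygen. In the intestine this machinery serves epithelial cells that divide in crypts and absorb nutrients on villi.

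Total counts were 7888998, 7915838 and 10538004 in the fetal libraries and 5795518, 6045113 and 5800348 in the adult libraries. Within a group, each pair of libraries differed beyond counting noise (chi-square divided by its degrees of freedom 5.08 to 9.99). Whether the replicates were separate animals is not stated in the labels, and p-values therefore reflect only library-to-library spread, which may be technical. Summed epithelial markers lay at 5074 to 5199 CPM (counts scaled to a common library size with TMM factors) in fetal libraries and 7365 to 7775 CPM in adult libraries. Crypt stem cell markers summed to 154 to 221 CPM in fetal libraries and 7197 to 9727 CPM in adult libraries. Cycling markers were at 1953 to 2570.2 CPM in fetal libraries and 3882 to 4060.3 CPM in adult libraries. Enterocyte markers were at 4381 to 6195 CPM in fetal libraries and 1622 to 2161 CPM in adult libraries. Of these 8 genes, 7 were called higher in fetal epithelium and Sis, sucrase-isomaltase, was lower, with 28.6 CPM in fetal and 478.8 CPM in adult epithelium (log2 fold change -4.06). The lipid carriers Apoa1 and Apoa4 made up most of that fetal sum, with 1571.8 and 2305.9 CPM. Pancreas exocrine markers, 12 genes, summed to 934.5 to 1956.2 CPM in fetal libraries and 8.46 to 18.6 CPM in adult libraries. Erythroid markers, 6 genes of which 1 was at 0 in every library, summed to 35.7 to 62.5 CPM in fetal libraries and 0.508 to 1.38 CPM in adult libraries. Neuron and glia markers, 7 genes, summed to 47.9 to 68.6 CPM in fetal libraries and 5.0 to 6.1 CPM in adult libraries. Immune markers summed to 22.8 to 23.8 CPM in fetal and 25.1 to 29.1 CPM in adult libraries, and endothelial markers to 1.87 to 7.72 CPM in fetal and 5.29 to 7.62 CPM in adult libraries. The Y-linked genes Ddx3y, Eif2s3y, Kdm5d and Uty summed to 380, 831 and 1036 counts in the fetal libraries and to 0 in each adult library, so sex composition moved with age. The part of any of these differences in the results below was not tested. In bulk samples, fewer cells of a type and less RNA per cell cannot be told apart.

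Upstream windows of 4 members are shown to set sequence beside members called in the comparison described below: Ndufa5, Uqcrc1 and Sdhb were lower in fetal epithelium, and Cox7c was higher. The 4 members were chosen after their values were seen, and the 4 motifs below likewise. Each runs from 250 bases before to 50 bases after the annotated RefSeq gene start on GRCm38.p6, 5′ to 3′ on the gene's strand. Capitals mark exact matches, on either strand, to GCGCATGC, a core of the NRF1 motif, or to CCGGAAG, a core of the ETS motif. AAGATGGC of YY1 and CAAGGTCA of the estrogen-related receptors were also searched, and Ndufa5 and Cox7c held none of the 4. Ndufa5 is shown from the minus strand at chr6:24527641-24527940, Uqcrc1 from the plus strand at chr9:108936398-108936697, Sdhb from the plus strand at chr4:140961021-140961320 and Cox7c from the minus strand at chr13:86046746-86047045.
Ndufa5: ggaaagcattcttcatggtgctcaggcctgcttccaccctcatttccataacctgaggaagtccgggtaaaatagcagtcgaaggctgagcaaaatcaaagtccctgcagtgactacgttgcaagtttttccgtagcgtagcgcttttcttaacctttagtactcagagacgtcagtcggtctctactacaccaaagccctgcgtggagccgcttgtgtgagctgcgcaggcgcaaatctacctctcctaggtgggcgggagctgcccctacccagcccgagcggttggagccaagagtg
Uqcrc1: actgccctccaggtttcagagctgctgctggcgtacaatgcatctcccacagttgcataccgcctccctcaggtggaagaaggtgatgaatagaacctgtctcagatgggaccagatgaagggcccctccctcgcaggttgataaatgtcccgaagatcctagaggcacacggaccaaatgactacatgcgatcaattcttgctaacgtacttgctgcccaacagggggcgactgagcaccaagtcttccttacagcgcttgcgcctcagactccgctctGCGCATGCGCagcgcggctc
Sdhb: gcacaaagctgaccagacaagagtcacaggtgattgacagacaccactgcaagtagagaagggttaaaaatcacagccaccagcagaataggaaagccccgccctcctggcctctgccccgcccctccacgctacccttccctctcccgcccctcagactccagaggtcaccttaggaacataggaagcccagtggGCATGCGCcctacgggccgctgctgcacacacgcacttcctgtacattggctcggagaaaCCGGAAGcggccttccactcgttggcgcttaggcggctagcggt
Cox7c: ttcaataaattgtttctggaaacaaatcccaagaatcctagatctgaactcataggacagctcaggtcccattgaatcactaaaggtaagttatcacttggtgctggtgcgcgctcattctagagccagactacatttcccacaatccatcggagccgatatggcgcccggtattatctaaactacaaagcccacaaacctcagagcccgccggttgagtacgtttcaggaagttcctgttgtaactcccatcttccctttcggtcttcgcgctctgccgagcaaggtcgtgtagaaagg

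Subunit genes were lower in fetal epithelium more often than higher, by small amounts. Of the 84 members, 75 passed the filter on low counts and were tested with edgeR's quasi-likelihood test, with Benjamini-Hochberg adjustment over all 13314 tested genes. At an adjusted p under 0.05, 32 members were lower in fetal epithelium, 2 were higher and 41 were not called. Among all tested genes, 25.9% were called lower, 29.0% higher and 54.9% in either direction. The median member log2 fold change, fetal minus adult, was -0.22 (quartiles -0.34 and -0.03), against 0.01 for all tested genes (quartiles -0.35 and 0.52). Fold changes were negative for 61 of the 75 members. Only Ndufa1 and Cox7a1 were called with a change over 2-fold, whereas 23.9% of all tested genes were. The fetal and adult libraries did not overlap, with fetal lower, for 39 members, against 29.6% of all tested genes, and with fetal higher for 4 members, against 32.7%. In either direction, 62.3% of all tested genes had groups apart.

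Fold changes of all tested genes varied with transcript length. The median log2 fold change of all tested genes with a known length was -0.29 for transcripts under 600 bases and 0.08 for those of 4000 bases and over. In the bins between, from short to long, it was -0.06, -0.09, -0.03 and 0.01. The members' medians were -0.24 under 600 bases (17 members), -0.21 from 600 bases (21 members), -0.19 from 900 bases (18 members), -0.20 from 1500 bases (12 members) and -0.25 from 2500 bases (4 members). The 2 members of 4000 bases and over had a median of 0.15. With a smooth length trend taken out of each library, 19 members were called lower and 5 higher, and the member median was -0.11. In that fit 26.6% of all genes were called lower and 29.1% higher.

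**Figure D1:**
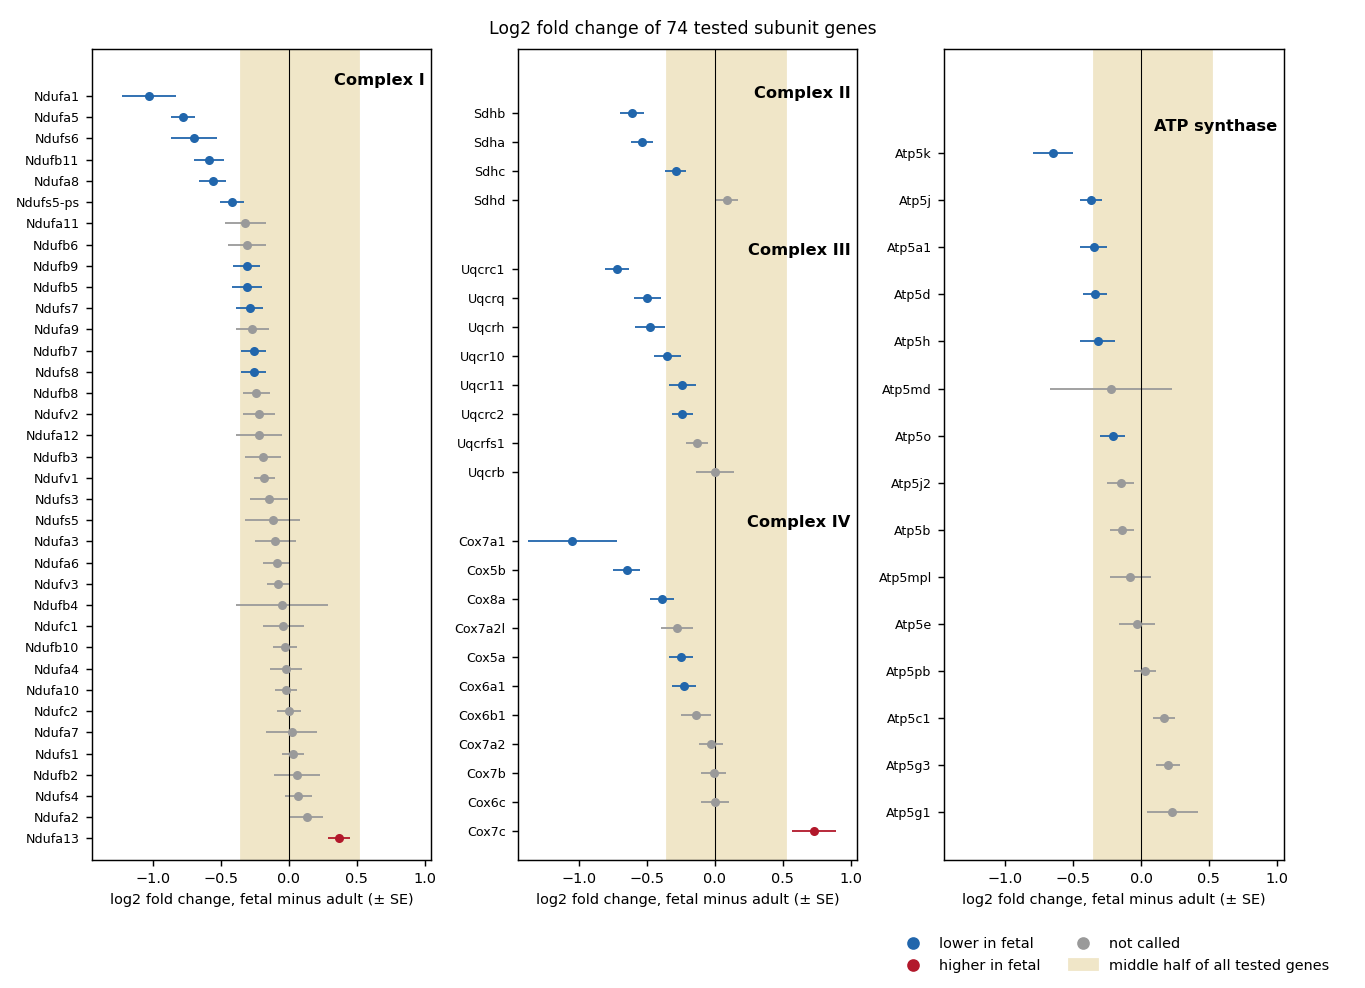
Log2 fold change (fetal minus adult, horizontal axis, ± SE) of 74 of the 75 tested members, by complex. Blue points were called lower in fetal epithelium (31), red points higher (2) and grey points were not called (41); the band is the interquartile range of all tested genes, from -0.35 to 0.52.

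All complexes had a lower summed level in fetal epithelium. The members together reached 9564, 9810 and 9158 CPM in fetal libraries, against 10965, 11230 and 11673 CPM in adult libraries. The 2 sets of libraries did not overlap, and the fetal mean was 15.8% below the adult mean. The exact two-sided permutation p over libraries was 0.1, the smallest that 3 against 3 can give, here and for each complex. The difference was -15.3% for complex I, -19.8% for complex II, -20.5% for complex III, -13.6% for complex IV and -14.5% for ATP synthase. Without Atp5a1 and Atp5b, the members of highest summed weight, it was -15.5%.

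**Figure D2:**
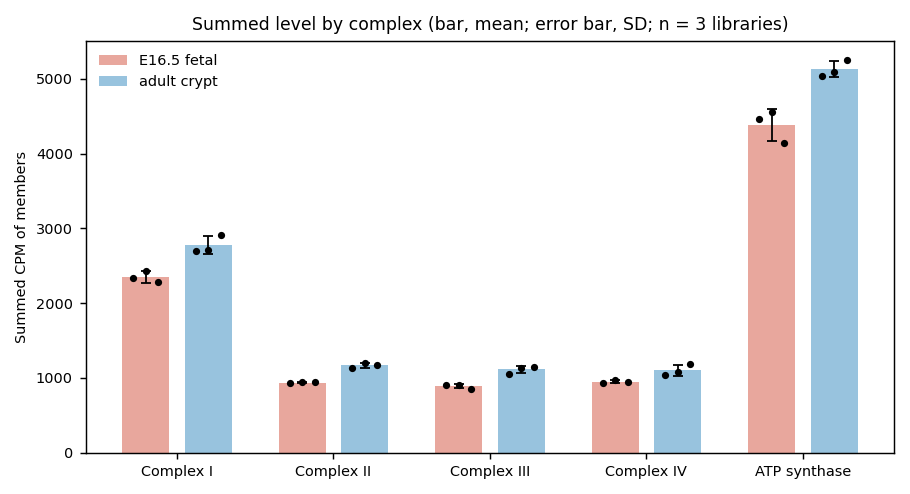
Summed CPM of the members of each complex in fetal (left bar) and adult crypt (right bar) libraries; bars are means, error bars SD, points the 3 libraries. ATP synthase had 4385 ± 214 CPM in fetal and 5127 ± 107 CPM in adult libraries, and no complex had overlapping groups.

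Complex I had 37 tested members, with a median of -0.19. Of these, 12 were lower (32.4%, against 25.9% of all tested genes), 1 was higher and 24 were not called. Without the third fetal library 7 were called lower, and 2 were called higher without any 1 of the adult libraries. Of the 7 tested core subunits, which carry the electron path, 3 were lower and 0 higher. Of the 30 tested accessory subunits, 9 were lower (30.0%) and 1 was higher. The accessory group holds Ndufs5-ps, a transcribed pseudogene that the symbol rule takes in and that was called lower, at -0.42. Ndufs5, for which a near-identical copy was found, took 13.6% to 14.7% of the pair's counts in fetal and 10.8% to 13.6% in adult libraries. Whether reads of Ndufs5 were counted under Ndufs5-ps was not tested. Without Ndufs5-ps, 8 of 29 accessory subunits, 11 of 36 members of complex I and 31 of 74 members in all were lower. The median of all members was then -0.22. Ndufs1, a core iron-sulfur subunit that was named after its values were seen, had 157 CPM in fetal and 154 CPM in adult epithelium on average and overlapped between the groups.

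Among the accessory subunits, Ndufa5 had 72.2, 77.3 and 81.0 CPM in fetal libraries, against 124, 136 and 136 CPM in adult libraries. Its groups were apart, and the log2 fold change was -0.78 ± 0.09 (SE). Ndufa1, a small X-linked subunit of the membrane arm, had 11.8, 11.1 and 13.2 CPM in fetal libraries, against 18.9, 21.5 and 33.5 CPM in adult libraries. Its log2 fold change was -1.03 ± 0.20, and the third adult library stood above the others. Ndufb11, also X-linked, fell by 0.59 ± 0.11 on the log2 scale, and Ndufa8 fell by 0.56 ± 0.10. Ndufa13, an accessory subunit also known as GRIM-19, had 106, 112 and 100.2 CPM in fetal libraries, against 85.0, 80.4 and 80.2 CPM in adult libraries. It was the only complex I member called higher, with a log2 fold change of 0.37 ± 0.08 (adjusted p with edgeR = 0.00222). Tssk6 overlaps 30.0% of its transcript, so reads of the pair could be shared.

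Ndufa4l2 replaces Ndufa4 in some settings and is known from hypoxic and contractile cells. It had 6, 13 and 16 counts in fetal libraries, against 0, 1 and 0 counts in adult libraries, and did not pass the filter. The ratio of its summed counts per depth was 22.7 (exact 95% counting interval 3.82 to 923), which covers counting error only. Ndufa4 itself, counted under complex I by its symbol only, averaged 38.8 ± 2.61 CPM in fetal and 39.4 ± 5.36 CPM in adult epithelium (SD). Mesenchyme markers, 11 genes, summed to 142 to 194 CPM in fetal libraries and 7.25 to 15.7 CPM in adult libraries. Muscle markers, 12 genes of which 1 was at 0 in every library, summed to 47.8 to 85.4 CPM in fetal libraries and 2.71 to 5.65 CPM in adult libraries. Their part in the Ndufa4l2 counts was not tested.

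In complex II, 3 of the 4 subunits were lower. Sdha, the flavoprotein that oxidizes succinate, had 356, 338 and 356 CPM in fetal libraries, against 489, 525 and 510 CPM in adult libraries. Sdhb, the iron-sulfur subunit, had 88.2, 88.3 and 84.9 CPM in fetal libraries, against 121, 130 and 149 CPM in adult libraries. The groups were apart for both, with log2 fold changes of -0.54 ± 0.08 for Sdha and -0.61 ± 0.09 for Sdhb. Sdhc and Sdhd anchor the complex in the membrane. Sdhc averaged 204 CPM in fetal and 249 CPM in adult epithelium and was called lower, at -0.29 ± 0.08. Sdhd averaged 297 ± 5.83 CPM in fetal and 279 ± 10.0 CPM in adult epithelium (SD). Its groups overlapped and it was not called, at 0.09 ± 0.08 (SE).

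In complex III, 6 of 8 members were lower and 0 higher, with a median of -0.30. Uqcrc1, a core protein, had 119, 115 and 98.4 CPM in fetal libraries, against 178, 178 and 189 CPM in adult libraries. Its groups were apart, and the log2 fold change was -0.72 ± 0.09 (adjusted p with edgeR = 1.92e-05). The small subunits Uqcrq and Uqcrh fell by 0.50 ± 0.10 and 0.48 ± 0.11. Uqcrb was not called, at 0.00 ± 0.14. Cyc1 and Cycs, cytochromes c1 and c, lie outside the symbol rule, and were lower at -0.34 ± 0.08 and -0.45 ± 0.14.

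**Figure D3:**
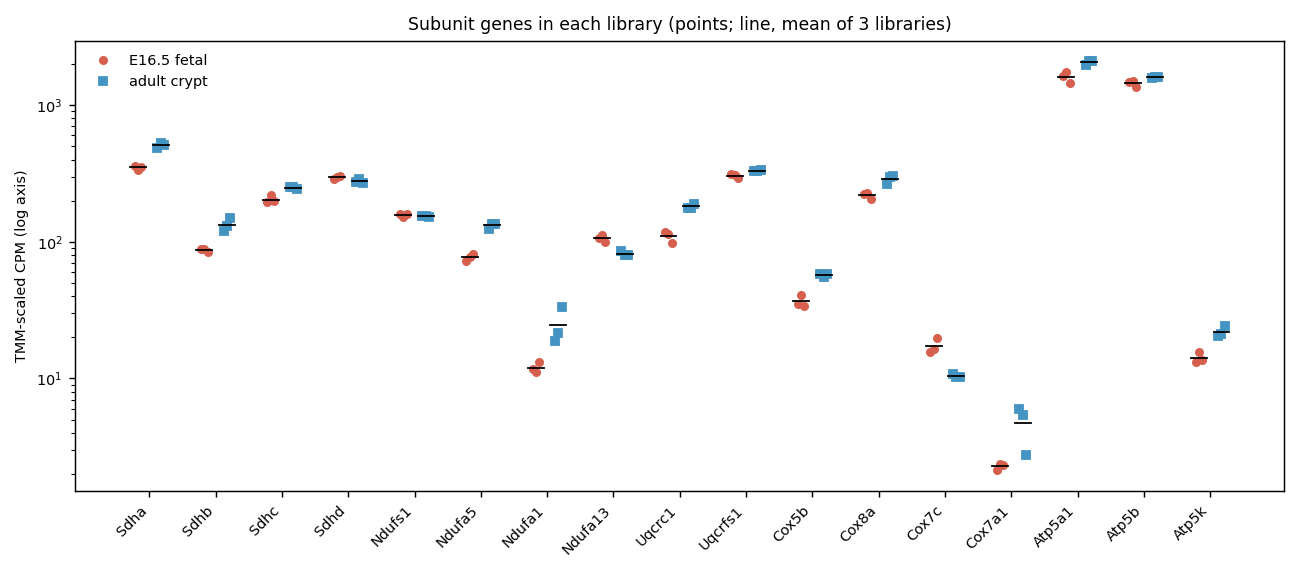
TMM-scaled CPM (log axis) of 17 members in each library, with fetal libraries as circles on the left and adult crypt libraries as squares on the right of each pair; lines are means of 3 libraries. Ndufa5, Sdhb and Uqcrc1 are lower in every fetal library, Cox7c and Ndufa13 are higher, and Ndufs1 and Sdhd overlap.

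Complex IV had 11 tested members, with 5 lower (45.5%, against 25.9% of all tested genes) and 1 higher and a median of -0.23. The number of lower members was 2 without the first fetal library, 3 without the second or the third adult library, 3 with DESeq2 and 2 with the length trend taken out. The median was -0.11 without the third adult library. Cox5b, a subunit on the matrix side, had 35.0, 40.7 and 34.0 CPM in fetal libraries, against 57.7, 55.2 and 58.5 CPM in adult libraries, a log2 fold change of -0.65 ± 0.10. Cox8a, the widely expressed form of the smallest subunit, fell by 0.39 ± 0.09. Cox7c, a small membrane subunit, had 15.7, 16.3 and 19.6 CPM in fetal libraries, against 10.8, 10.3 and 10.2 CPM in adult libraries, a log2 fold change of 0.73 ± 0.16 (adjusted p with edgeR = 0.00213). The near-identical copies Gm10012 and Gm12338 could share its reads. Cox4i1, which the symbol rule leaves out, was higher as well, at 0.27 ± 0.10. Cox6c, Cox7a2 and Cox7b were not called.

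Several complex IV subunits have a second form known from muscle or testis. Cox7a1, the muscle form beside Cox7a2, took 5.53%, 5.82% and 5.91% of the counts per length of the pair in fetal libraries, against 13.8%, 13.1% and 6.39% in adult libraries. The groups were apart, but the third adult library lay near the fetal ones (exact two-sided permutation p = 0.1). Its own log2 fold change was -1.05 ± 0.33, with means of 2.27 CPM for fetal and 4.73 CPM for adult epithelium, and it kept its call in 3 of 6 fits that left out 1 library. Of 12 muscle markers, 7 passed the filter, most of them with few or no adult counts. All 7 were called higher in fetal epithelium. For those with few or no adult counts this call was nearly fixed in advance, because they passed the filter through their fetal counts. The share of all tested genes called higher, 29.0%, is therefore no measure for them. The relation of these markers to Cox7a1 was not tested. Cox6a2 and Cox8b had 1 count each over all fetal libraries and 0 over the adult ones, and Cox7b2 and Cox8c had 0 counts in every library. Cox6b2 had 21 counts in fetal and 16 in adult libraries.

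ATP synthase had 15 tested members, of which 6 were lower (40.0%, against 25.9% of all tested genes) and 0 higher. Their median was -0.15. The F1 part, which is the catalytic head with the central stalk, gave 2 lower of 5. The outer stalk and membrane part gave 4 of 8, and the c ring 0 of 2. With library size as the only scaling, and also with the length trend taken out, Atp5c1 of the F1 part and Atp5g3 of the c ring were called higher. Atp5a1, the alpha subunit of the head, had 1645, 1736 and 1465 CPM in fetal libraries, against 1984, 2090.4 and 2099 CPM in adult libraries. Its groups were apart, at -0.35 ± 0.10. Atp5b, the catalytic beta subunit, named after its values were seen, averaged 1444 ± 68.7 CPM in fetal and 1596 ± 15.1 CPM in adult epithelium (SD). It was not called, at -0.14 ± 0.09 (SE). Per length, Atp5b was the highest member in fetal epithelium, at 754 CPM per kb. Atp5k, the e subunit of the membrane part, fell by 0.65 ± 0.15, and Atp5j fell by 0.37 ± 0.08. The c ring carries protons through the membrane and is encoded by 3 genes for 1 mature protein. Atp5g3 took 98.6%, 98.7% and 98.6% of their counts per length in fetal libraries and 98.6%, 98.5% and 98.7% in adult libraries. Of their raw counts it took 93.3%, 93.5% and 93.6% in fetal libraries and 94.1%, 93.6% and 92.9% in adult libraries. The share per length leans on the exon length of Atp5g1, 4715 bases, and Atp5g1 and Atp5g2 have near-identical copies that could share their reads. Atp5g2 had 14 counts over the fetal and 9 over the adult libraries. Atpif1, the inhibitor of ATP synthase, lies outside the symbol rule and was lower, at -0.48 ± 0.08.

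Near-identical copies touch many members. A copy with at least 95% identity over at least 80% of the coding length was found for 23 members. There were 44 tested members with no copy and at most 10% overlap with another gene. Of these, 18 were lower (40.9%, against 25.9% of all tested genes) and 0 were higher, with a median of -0.16. Neither Cox7c nor Ndufa13 is among them. Over all 16 fits, 12 members were called lower each time, among them Ndufs6, Ndufa1, Ndufa5, Ndufa8, Ndufb11, Sdha, Sdhb, Uqcrc1, Uqcrh, Uqcrq and Cox5b. Of those named, Ndufs6, Ndufb11 and Cox5b have a near-identical copy that could share their reads, and are likewise outside the 44. Cox7c was the 1 member called higher each time.

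Among promoter windows, 63 of the 75 tested members had an entry. Where a gene had several windows the one at the annotated gene start was taken, and otherwise the first listed. Of the members' windows, 52 of the 63 lay at that start, against 5736 of the 10573 windows of all tested genes. The windows compared below are thus placed differently, and the shares are not matched for that. The NRF1 core stood in 12.7% of the members' windows and in 5.32% of the windows of all tested genes. The YY1 core stood in 14.3%, against 4.67% of all. The ETS core stood in 23.8%, against 17.7%, and the receptor motif in 4.76%, against 1.09%. Of the 25 windows of lower members, 24.0% held the NRF1 core, 36.0% the ETS core, 8.0% the YY1 core and 0% the receptor motif. Of the 36 windows of members not called, 5.56% held the NRF1 core, 16.7% the ETS core, 19.4% the YY1 core and 8.33% the receptor motif. With the first listed window of each gene the members' shares were the same. That choice left 51 of the members' windows at the gene start, so it hardly changed them. These are descriptions of letters in a window and were not tested.

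The neighbouring pathways did not all move in 1 direction. Among all tested genes, 25.9% were called lower and 29.0% higher. Of 76 tested mitochondrial ribosomal proteins, 28 were lower (36.8%) and 1 was higher, with a median of -0.22, the same median as the subunits. Of 80 cytosolic ribosomal proteins, 20 were lower and 3 higher, with a median of -0.11. Of 16 genes of the tricarboxylic acid cycle, 6 were lower and 0 higher, with a median of -0.18 (3 lower without the second fetal library), and Mdh2, malate dehydrogenase, fell by 0.61 ± 0.08. Of 18 genes of mitochondrial gene expression and biogenesis, 10 were lower and 2 higher, with a median of -0.37. Ppargc1a, a coactivator of mitochondrial genes, fell by 0.99 ± 0.12, Esrrg by 1.48 ± 0.13 and Tfam, which packages mitochondrial DNA, by 0.57 ± 0.10. Nrf1 and Gabpa were not called, at -0.24 ± 0.10 and 0.12 ± 0.10. Of 17 genes of glycolysis and lactate, 10 were higher and 2 lower, with a median of 0.53, or 0.34 without the third adult library. Ldhb and Pgam1, both called higher, had only 3 and 18 counts over the adult libraries. Near-identical copies were searched for the members only, and not for the lists of this paragraph. Slc2a1, the glucose transporter GLUT1, had 154 ± 17.2 CPM in fetal epithelium, against 35.4 ± 1.78 CPM in adult epithelium (SD, n = 3 each), and Pfkl, liver phosphofructokinase, had 223 ± 29.7 CPM in fetal epithelium, against 39.5 ± 5.60 CPM in adult epithelium. Hk2, a hexokinase, fell by 0.85 ± 0.10.

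Assembly factors were mixed. Shares called lower were 41.2% for complex I, 30.0% for complexes II and III, 33.3% for complex IV and 20.0% for ATP synthase. All tested genes had 25.9% lower and 29.0% higher. Of 17 factors of complex I, 7 were lower and 1 higher, with a median of -0.22. Without the second fetal library 4 were lower, and without any 1 library 0 were higher. Ecsit fell by 0.69 ± 0.12. Of 21 factors of complex IV, 7 were lower and 5 higher, with a median of -0.12, or 0.05 without the third adult library. The copper carriers Cox17 and Cox19 rose by 0.64 ± 0.12 and 1.19 ± 0.11, and Sco1, a copper chaperone, fell by 0.74 ± 0.10. Of 10 factors of complexes II and III, 3 were lower and 1 higher, with a median of -0.08 that turned positive with the length trend taken out. The 1 higher factor lost its call without the first or second fetal or the first or second adult library. Of 5 factors of ATP synthase, 1 was lower, and 0 were lower without any 1 library other than the third adult one. Among 9 other enzymes that feed ubiquinone, 4 were lower and 3 higher, with a median of -0.07, or 0.03 without the third fetal or the second adult library. Chdh, choline dehydrogenase, fell by 2.83 ± 0.11. Of 12 genes listed for inner membrane organization, 2 were lower and 2 higher, and 1 or 0 were lower without any 1 library. The higher genes were Micos10, at 0.38 ± 0.09, and Tomm20, at 0.43 ± 0.11, which is an import receptor of the outer membrane. Of 7 tested subunits and carriers listed beside the members, of which Atp5md and Atp5mpl match the symbol rule, 3 were lower and 1 higher.

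**Figure D4:**
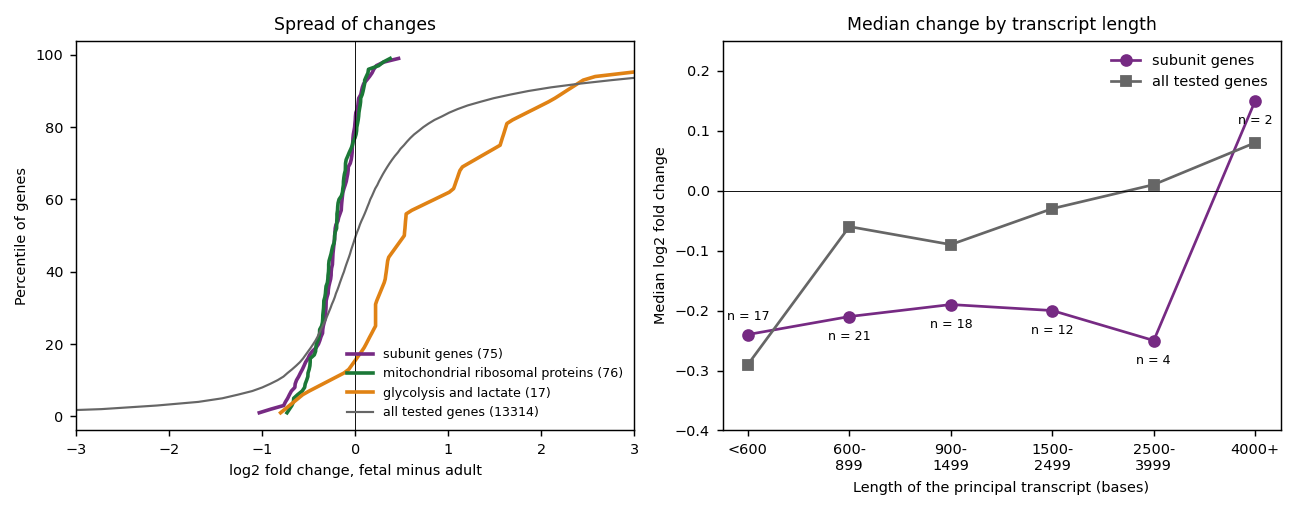
Left, percentile of genes against log2 fold change (fetal minus adult) for the members, mitochondrial ribosomal proteins, glycolysis and lactate genes, and all tested genes. Right, median log2 fold change by transcript length for the members and all tested genes; the members' median is -0.19 to -0.25 in the 5 bins under 4000 bases and 0.15 for the 2 longest members.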

How the data were processed

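The authors deposited raw counts per gene, whole numbers with a different sum in each library. The submitters' processing notes name mm10 and edgeR. For aligner, annotation and strand setting, the sources used here give nothing. Groups and replicate numbers came from sample titles. Counts were tested with edgeR 4.0.16 in R 4.3.3 (quasi-likelihood, TMM, filterByExpr by group, no other term). A gene was called at an adjusted p under 0.05. The SE is the log2 fold change divided by the square root of F. DESeq2 1.42.0 was an alternative. Rn45s, a ribosomal RNA precursor, took 7.32% to 10.7% of counts and was kept. Transcript lengths, overlaps and near-identical copies came from GENCODE annotation of GRCm38, and 95.8% of tested genes had a length. The code was tested on simulated data, where the share of false calls lay somewhat above the threshold on the adjusted p.

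The members and lists were chosen with earlier results of these data known. The motifs, the promoters shown, the choice of 1 window a gene (changed from the first listed), the length bins, the ribosomal protein lists, the definition of length (changed from all exons to the principal transcript) and the copy thresholds (raised in coverage and moved to coding sequence after a first search found few copies) were chosen after values were seen. Named genes are those with the smallest p per complex and list, the largest changes, and fixed isoform pairs. Ndufs1, Ndufs6, Uqcrb, Uqcrfs1, Atp5b, Atp5c1 and Cox6c were added after their values were seen. The values of 1 member are not reported here, although it is included in the counts.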

Additional observations from a re-analysis of the deposited data

How the results depend on the processing

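Members called lower numbered 32 in the reported fit and 23 to 33 when 1 library was left out, 15 against a fold of 1.2 (1 higher), 19 with the length trend removed (5 higher, median -0.11) and 17 with the length trend and the replicate block (4 higher, median -0.11). Library size alone gave 22 lower and 4 higher, and DESeq2 gave 23 lower and 2 higher. The 44 members without copies or overlap, an alternative chosen after seeing the data, gave 18 lower and 0 higher. The median stayed negative, between -0.24 and -0.11, in every fit run. With the replicate block alone, 28 members were lower and 2 higher. Same-numbered libraries did not deviate together (correlations -0.063, -0.035 and -0.087). Differently numbered libraries gave values of similar size, up to 0.063. Whether the numbers pair the samples is not settled by these correlations.

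For complex I, a fold of 1.2 gave 7 lower and 0 higher, the length trend 6 lower, 2 higher and a median of -0.09 (6 lower and -0.09 with the block), no filter 2 higher and library size alone a median of -0.14; left-out libraries gave 7 to 14 lower and 1 to 2 higher. For complex III, a fold of 1.2 gave 3 lower, and the length trend a median of -0.18 with or without the block. For complex IV, the numbers lower were 3 with library size alone, 2 against a fold of 1.2, 2 with the length trend (median -0.06), 1 with the block added (median -0.06), 3 with DESeq2 and 2 to 5 with a library left out (median -0.26 to -0.11). For ATP synthase, 2 were higher with library size alone or the length trend, with or without the block, 1 was lower against a fold of 1.2 and 3 with the length trend and block.

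Among assembly factors of complex I, 0 were higher with no filter, the block, a fold of 1.2, the length trend with block, DESeq2 or any left-out library (0 to 0); a fold of 1.2 gave 4 lower and left-out libraries 4 to 8. Among those of complexes II and III, 0 were higher with the block, a fold of 1.2 (1 lower), the length trend, that trend with block, or DESeq2, and 0 to 1 with a library left out; the median reversed to 0.02 with the length trend and 0.04 with the block added. Among those of complex IV, a fold of 1.2 gave 3 higher and 4 lower, the length trend a median of -0.02 with or without block, and left-out libraries -0.25 to 0.05, a reversal without the third adult library. Among those of ATP synthase, 0 were lower with RLE, library size alone (median -0.03), no filter, the block, a fold of 1.2, the length trend, that trend with block, or DESeq2; left-out libraries gave 0 to 1 lower, 0 to 1 higher and medians of -0.12 to -0.01.

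For subunits and carriers beside the members, a fold of 1.2 gave 0 higher and 1 lower, and left-out libraries 0 to 1 higher. For the tricarboxylic acid cycle, 3 were lower with library size alone (median -0.13) or the block, 1 against a fold of 1.2 and 3 to 5 with a library left out (median -0.19 to -0.15). For biogenesis, library size alone gave a median of -0.32, a fold of 1.2 gave 6 lower, and left-out libraries 1 to 2 higher and medians of -0.37 to -0.32. For other electron donors, a fold of 1.2 gave 1 higher, and left-out libraries medians of -0.16 to 0.03. For inner membrane organization, 1 was lower with library size alone, the block, the length trend or DESeq2, 0 with the length trend and block or against a fold of 1.2 (0 higher), and 0 to 1 with a library left out (median -0.15 to -0.06). For glycolysis, left-out libraries gave medians of 0.34 to 0.58. The causes were not tested. With 3 libraries a group, a member that was not called may still differ by a small amount, and counts below the filter limit the isoforms named.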
